A study of Rattus norvegicus with 12 samples.

Results

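Clostridia UCG-014 and the Clostridia vadinBB60 group are family-level lineages of gut Firmicutes that are known almost entirely from 16S rRNA gene sequences. The members described here are all amplicon sequence variants (ASVs, exact 16S rRNA gene sequences left after denoising) whose deposited lineage names either family. UCG-014 held 411 ASVs and vadinBB60 held 154 ASVs, so 565 of the 7240 ASVs in the series' count table belonged to them. Faecal DNA was taken from rats in 4 groups with 3 libraries each. The SAH+Tet+ABX group had subarachnoid haemorrhage (SAH, bleeding around the brain), tetrandrine (Tet, a plant alkaloid) and the treatment that the labels shorten to ABX, a common short form for antibiotics that they do not spell out. The SAH+Tet group had haemorrhage and tetrandrine. The SAH group had haemorrhage alone, and the Sham group is the control labelled Sham. The labels state no dose, timing, sex or age, and they leave unsaid whether the 3 libraries of a group came from separate animals. The p-values below therefore measure the spread between these libraries.

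As background, both names are placeholders. UCG-014 was earlier filed under Ruminococcaceae in sequence databases, and vadinBB60 is named after a clone sequenced from an anaerobic digester. Bacteria of the class Clostridia in the gut are mostly strict anaerobes that ferment plant fibre and mucus glycans, and many make short-chain fatty acids. What UCG-014 and vadinBB60 themselves do is largely inferred from relatives, because cultured representatives are scarce. The deposited taxonomy reflects this: 348 of the 411 UCG-014 ASVs and 45 of the 154 vadinBB60 ASVs had no species tag. The tag was "uncultured_bacterium" for 33 UCG-014 ASVs and 66 vadinBB60 ASVs, and "unidentified" for 23 UCG-014 ASVs and 29 vadinBB60 ASVs. No ASV of either lineage carried the name of a cultured species. ASVs are called here by lineage and by rank of their share summed over the 12 libraries, so UCG-014 ASV 1 is the most abundant of its lineage. One bacterium can carry several slightly different 16S copies, so ASVs are not counts of strains.

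All levels are shares of a library's total reads. The data hold no measure of bacterial load, so fewer cells of a lineage and more cells of other bacteria cannot be told apart. Library totals were between 211450 and 531426 reads. The 3 SAH+Tet+ABX libraries, SAH+Tet 3 and SAH 1 had under 300000 reads, and the other 7 libraries had more. Every Sham library was in the deeper class, so depth is partly tied to the groups. Sampling of reads adds little error: the widest exact (Clopper-Pearson) 95% interval reached 0.0803 percentage points to either side for UCG-014 and 0.0193 points for vadinBB60, covering counting error only. Where a library had no reads of a lineage or ASV, 3 reads were taken as the upper limit.

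UCG-014 was an abundant lineage outside the SAH+Tet+ABX group and vadinBB60 a scarce one. UCG-014 took 0.00851%, 0% and 0% of reads in the SAH+Tet+ABX libraries. It took 1.70%, 1.66% and 3.96% in SAH+Tet, 1.96%, 1.81% and 1.41% in SAH, and 2.92%, 2.73% and 3.95% in Sham. The first SAH+Tet+ABX library held 18 UCG-014 reads and the other 2 held none, which allows shares of up to 0.00128% and 0.00123%. Every other library was at least 1.41%, and the SAH libraries all lay below the Sham libraries. The SAH+Tet libraries overlapped both, because SAH+Tet 3 was as high as the highest Sham library while SAH+Tet 1 and 2 lay inside the range of SAH.

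vadinBB60 took 0.00331%, 0.00811% and 0.0310% of reads in the SAH+Tet+ABX libraries. It took 0.138%, 0.126% and 0.215% in SAH+Tet, 0.178%, 0.109% and 0.148% in SAH, and 0.325%, 0.276% and 0.317% in Sham. The 3 Sham libraries were the highest 3 of the 12, the 3 SAH+Tet+ABX libraries were the lowest 3, and SAH+Tet and SAH overlapped. Unlike UCG-014, vadinBB60 had reads in every SAH+Tet+ABX library, namely 7, 19 and 76 reads.

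**Figure D1:**
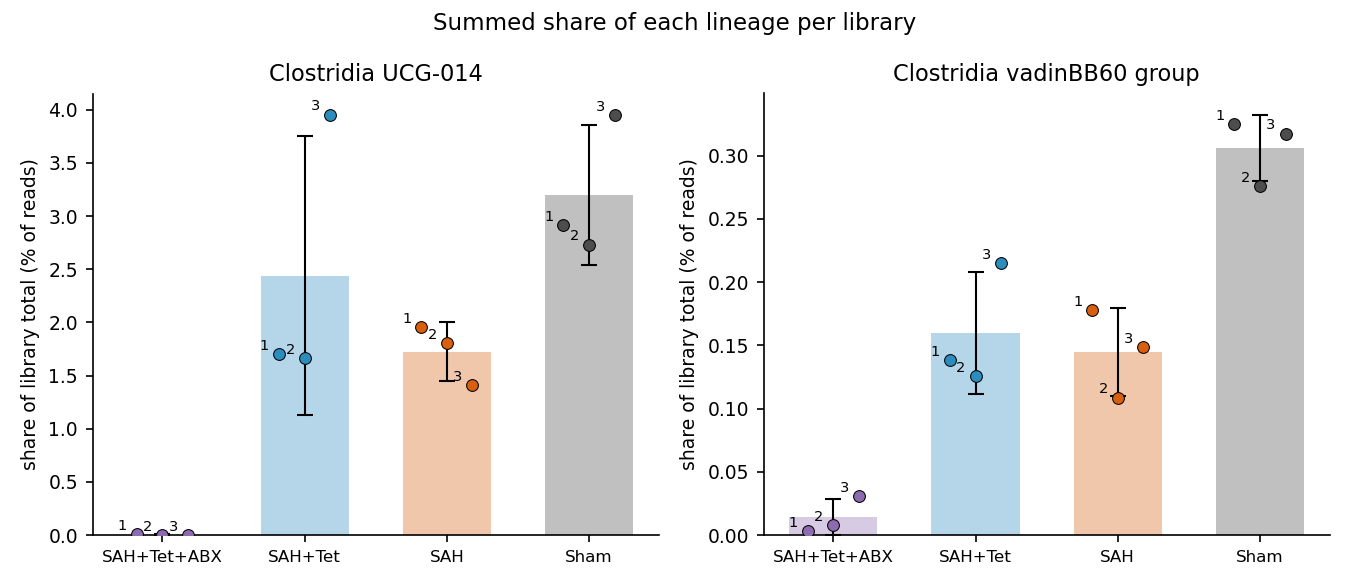
Share of each library's reads (%, linear axes from 0) assigned to UCG-014 (left) and vadinBB60 (right) in the 4 groups. Points are libraries with their replicate number, bars are means and error bars are SD (n = 3, cut at 0). SAH libraries lie below Sham libraries in both lineages, and the SAH+Tet+ABX libraries lie at or near 0.

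With haemorrhage against sham, the question was whether the lineages' shares differed after SAH. The mean share of UCG-014 was 1.73% ± 0.280 in SAH and 3.20% ± 0.658 in Sham (SD, n = 3 each), and that of vadinBB60 was 0.145% ± 0.0347 in SAH and 0.306% ± 0.0263 in Sham. SAH was thus at 0.539 of the Sham mean for UCG-014 and at 0.474 of it for vadinBB60. Neither difference passed the test across families: edgeR's quasi-likelihood log2 fold changes were -0.61 ± 0.473 (SE, adjusted p = 0.479) for UCG-014 and -0.80 ± 0.496 (adjusted p = 0.352) for vadinBB60. That fit called 2 of 93 families, or 2.15%, in either direction. These fold changes depend on scaling, since the median family stood at 0.29 on the log2 scale under edgeR's TMM scaling, at 0.00 under scaling by library total and at -0.57 as centred log-ratios. UCG-014 and vadinBB60 stayed below that median under each of the 3 scalings, at -0.88 and -1.07 by library total and at -1.50 and -1.72 as centred log-ratios, again short of the threshold (adjusted p = 0.167 and 0.134 by library total with edgeR, 0.416 and 0.339 with limma).

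All 3 SAH libraries below all 3 Sham libraries, seen in both lineages, is not rare among families here: 16 of 73 families with a mean share of at least 0.01%, or 21.9%, showed it. An exact two-sided permutation test of 3 libraries against 3 cannot give a p under 0.1. Among the 7 deeper libraries alone, a choice made after seeing the data that leaves SAH 2 and SAH 3 against the 3 Sham libraries, SAH was at 0.503 of the Sham mean for UCG-014 and at 0.420 for vadinBB60, with no overlap in either. edgeR called neither lineage there (adjusted p = 0.312 and 0.137).

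After tetrandrine, neither lineage differed from haemorrhage alone beyond the spread between libraries. UCG-014 averaged 2.44% ± 1.31 in SAH+Tet and 1.73% ± 0.280 in SAH, a log2 fold change of 0.39 ± 0.472 by edgeR (adjusted p = 0.764). vadinBB60 averaged 0.160% ± 0.0481 in SAH+Tet and 0.145% ± 0.0347 in SAH, a log2 fold change of 0.02 ± 0.493 (adjusted p = 0.992). The fit called 0 of 93 families, or 0%, although 12 had an unadjusted p under 0.05, and DESeq2 and limma called neither lineage. The higher UCG-014 mean came from SAH+Tet 3 alone. Without that library the log2 fold change turned to -0.17 for UCG-014 and to -0.23 for vadinBB60.

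In SAH+Tet 3 a single ASV held a large part of the lineage. UCG-014 ASV 1 alone made up 1.62% of its reads and 41.1% of its UCG-014 reads. This ASV had 0.00895% and 0.0517% in the other SAH+Tet libraries, 0%, 0% and 0.00802% in SAH, and 0.0857%, 0% and 0% in Sham. In the other libraries with more than 1 UCG-014 ASV, the leading ASV held between 7.75% and 21.6% of the lineage. The effective number of ASVs (the exponential of Shannon's entropy over the lineage's reads) was 17.9 in SAH+Tet 3, 60.5 and 53.7 in SAH+Tet 1 and 2, 24.8 in SAH 3 and 34.4 in SAH 1. SAH+Tet 3 was also 1 of the 5 shallower libraries. The part of depth in this was not tested.

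With ABX added to tetrandrine, both lineages fell. UCG-014 averaged 0.00284% ± 0.00491 in SAH+Tet+ABX and 2.44% ± 1.31 in SAH+Tet, and edgeR gave a log2 fold change of -9.37 ± 1.77 (adjusted p = 0.00299). vadinBB60 averaged 0.0142% ± 0.0148 in SAH+Tet+ABX and 0.160% ± 0.0481 in SAH+Tet, with a log2 fold change of -2.94 ± 0.899 (adjusted p = 0.0319). With the libraries without reads set to 3 reads, the mean share of UCG-014 was at least 664-fold lower, and at least 1947-fold lower without SAH+Tet+ABX 1. The mean share of vadinBB60 was 11.3-fold lower, and 27.9-fold lower without SAH+Tet+ABX 3. Of the 93 families tested, 24, or 25.8%, were called lower, and the median family was at -2.74 on the log2 scale, close to the vadinBB60 value. The closeness depended on the fit: vadinBB60 was at -3.47 against a median of -0.33 with depth class as a block, and at -2.91 against -0.29 in the 6 libraries alone. All SAH+Tet+ABX libraries lay below all SAH+Tet libraries in both lineages, as they did in 28 of 73 families, or 38.4%. The UCG-014 call held under every alternative. The vadinBB60 call was lost under several, among them leaving out SAH+Tet+ABX 2 (adjusted p = 0.0777), SAH+Tet 1 (0.0512), SAH+Tet 2 (0.0600) or SAH+Tet 3 (0.0503) with edgeR.

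Other families of the class Clostridia gave mixed results in the same comparison. These families came from a list of names, which need not hold every family of the class. Of the 15 found in the table, 14 were tested and 3 were called, 2 of them lower, with a median log2 fold change of 0.04 by edgeR. UCG-010, another uncultured lineage, had a log2 fold change of -5.98 ± 1.73 (adjusted p = 0.0236) and Clostridiaceae one of -2.74 ± 0.776 (adjusted p = 0.0234). Peptococcaceae was higher, at 2.34 ± 0.598 (adjusted p = 0.0173). Lachnospiraceae, which holds many known fibre fermenters, averaged 26.3% ± 11.4 of reads in SAH+Tet+ABX and 22.0% ± 3.89 in SAH+Tet. In the other 2 comparisons 0 of the 14 families were called, with medians of -0.01 for SAH against Sham and 0.14 for SAH+Tet against SAH. The difference between the 2 lineages and these families was not itself tested.

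Across all 4 groups, exact permutation tests of the F statistic over every arrangement of the 12 libraries gave an adjusted p of 0.0177 for the share of UCG-014 and 0.0107 for that of vadinBB60. The same test called 26 of 73 families, or 35.6%. Over the 9 libraries without SAH+Tet+ABX, with 280 arrangements, the permutation test gave an adjusted p of 0.371 for UCG-014 and 0.228 for vadinBB60. The unadjusted values were 0.146 and 0.0250. That test called 0 of 73 families, so the lost calls are not particular to these lineages.

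The number of distinct ASVs followed a similar order. At a common depth of 211450 reads, the expected number of UCG-014 ASVs was 1.00, 0 and 0 in SAH+Tet+ABX. It was 112, 107 and 75.9 in SAH+Tet, 72.0, 107 and 62.6 in SAH, and 133, 137 and 165 in Sham. Every Sham library exceeded every library of the other groups, and SAH+Tet and SAH overlapped. For vadinBB60 the expected numbers were 1.00, 3.00 and 3.00 in SAH+Tet+ABX, 34.7, 42.8 and 21.0 in SAH+Tet, 15.9, 28.1 and 33.1 in SAH, and 53.9, 43.8 and 59.9 in Sham. Here too Sham was highest, although Sham 2 and SAH+Tet 2 differed by about 1 ASV.

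As group means, UCG-014 had 0.333 ± 0.577 ASVs in SAH+Tet+ABX, 98.4 ± 19.6 in SAH+Tet, 80.6 ± 23.5 in SAH and 145 ± 17.5 in Sham. vadinBB60 had 2.33 ± 1.15 in SAH+Tet+ABX, 32.8 ± 11.0 in SAH+Tet, 25.7 ± 8.89 in SAH and 52.5 ± 8.17 in Sham (SD, n = 3 each). The exact permutation test over the 4 groups gave an adjusted p of 0.00714 for both lineages, and called 18 of 55 families with at least 10 ASVs, or 32.7%. Without the SAH+Tet+ABX libraries the adjusted p of the permutation test was 0.393 for both, from unadjusted values of 0.0321 for UCG-014 and 0.0357 for vadinBB60. It then called 0 of 55 families. SAH lay below every Sham library in 10 of the 55 families, or 18.2%, and SAH+Tet+ABX below every SAH+Tet library in 37 of them, or 67.3%. Both lineages were among these families in each case. UCG-014 made up between 3.22% and 6.18% of all ASVs in the SAH libraries at this depth and between 5.94% and 7.06% in the Sham libraries. vadinBB60 made up between 1.30% and 1.70% in SAH and between 1.97% and 2.56% in Sham.

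**Figure D2:**
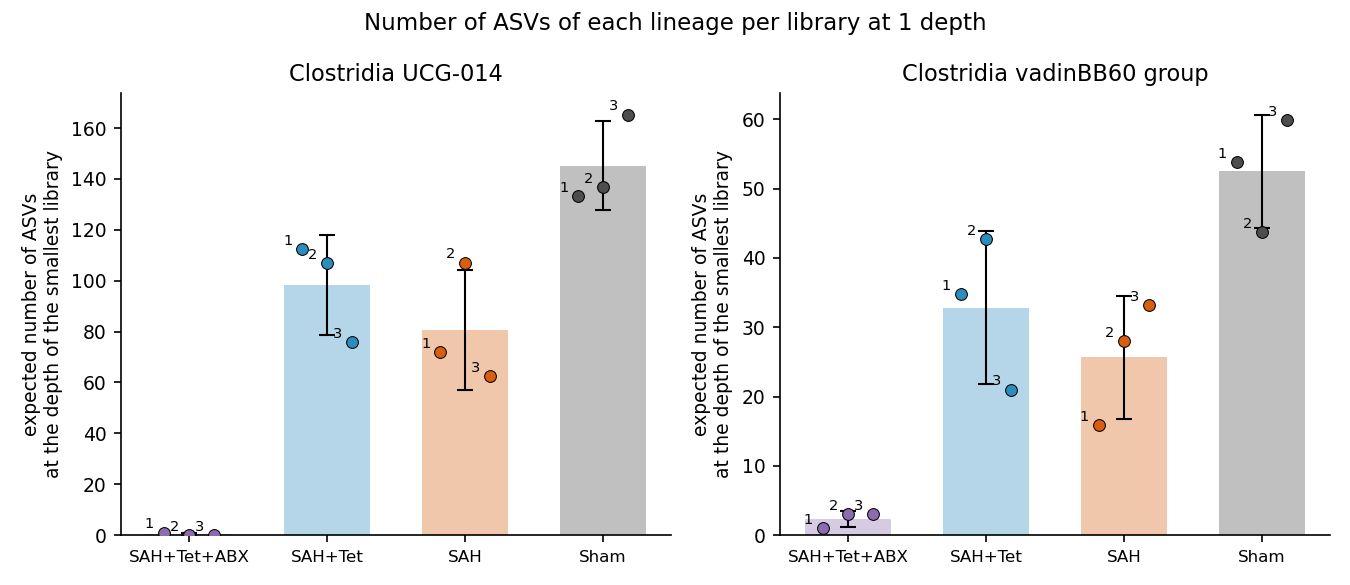
Expected number of ASVs of UCG-014 (left) and vadinBB60 (right) per library at the depth of the smallest library, 211450 reads. Points are libraries with their replicate number, bars are means and error bars are SD (n = 3, cut at 0). Sham libraries hold the most ASVs of both lineages, and SAH+Tet+ABX libraries hold between 0 and 3.

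Both lineages consisted mainly of rare ASVs found in few libraries. The median UCG-014 ASV had 57.0 reads over the 12 libraries and the median vadinBB60 ASV had 19.5 reads. The 10 leading ASVs made up 35.6% of the summed share of UCG-014 and 45.9% of that of vadinBB60. In UCG-014, 176 ASVs, or 42.8%, had reads in a single library, and in vadinBB60 71 ASVs, or 46.1%, did so. Over all 7238 ASVs analysed that share was 47.9%, so rarity of this kind was general in the table.

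A small core persisted outside the SAH+Tet+ABX group. UCG-014 ASVs 2, 3, 4, 7 and 12 and vadinBB60 ASV 1 had reads in all 9 libraries of SAH+Tet, SAH and Sham, as did 259 of 7238 ASVs, or 3.58%, over the whole table. Together the 5 UCG-014 ASVs made up 0.399% ± 0.196 of reads in SAH+Tet, 0.247% ± 0.109 in SAH and 0.640% ± 0.264 in Sham. They were not detected in SAH+Tet+ABX.

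UCG-014 ASV 3 had no reads in SAH+Tet+ABX. It had 0.0688%, 0.138% and 0.119% in SAH+Tet, 0.0661%, 0.0380% and 0.0256% in SAH, and 0.143%, 0.129% and 0.119% in Sham. All SAH libraries lay below all libraries of SAH+Tet and Sham, an order that was not counted over all ASVs. In edgeR's ASV fit the log2 fold change of UCG-014 ASV 3 was -1.56 ± 0.922 for SAH against Sham (adjusted p = 0.332). For SAH+Tet against SAH it was 1.34 ± 0.917 (adjusted p = 0.483), so neither passed. These 2 comparisons share the SAH libraries.

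UCG-014 ASV 12 had the same order. It had no reads in SAH+Tet+ABX, 0.0522%, 0.0414% and 0.0924% in SAH+Tet, 0.00483%, 0.0194% and 0.0198% in SAH, and 0.0490%, 0.0341% and 0.0910% in Sham. UCG-014 ASV 2, which carried the tag "unidentified", differed in that its groups overlapped: it had 0.0247%, 0.0952% and 0.216% in SAH+Tet, 0.145%, 0.0994% and 0.0343% in SAH, and 0.331%, 0.116% and 0.252% in Sham. UCG-014 ASVs 4 and 7 overlapped likewise, with means of 0.0614% and 0.0556% in SAH+Tet, 0.0435% and 0.0529% in SAH, and 0.146% and 0.0721% in Sham.

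vadinBB60 ASV 1 was the one core ASV that also appeared in the SAH+Tet+ABX group. It had 0.00331%, 0.00342% and 0% there, 0.0347%, 0.0236% and 0.0730% in SAH+Tet, 0.0544%, 0.0213% and 0.0292% in SAH, and 0.0210%, 0.0237% and 0.0192% in Sham. While the lineage as a whole averaged least in SAH among these last 3 groups, this ASV had its lowest mean in Sham, at 0.0213% ± 0.00224, and the groups overlapped. It made up 23.3% of vadinBB60 reads on average in SAH and 7.03% in Sham. Its edgeR log2 fold change for SAH against Sham was 0.72 ± 0.939 (adjusted p = 0.764).

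Several leading ASVs were found mostly or wholly in Sham. UCG-014 ASV 5 had no reads outside Sham, where it took 0.177%, 0.109% and 0.306%. UCG-014 ASV 8 had 0%, 0.0113% and 0.00691% in SAH against 0.0635%, 0.360% and 0.0752% in Sham, and UCG-014 ASV 9 had 0%, 0.0358% and 0.0357% in SAH against 0.0659%, 0.209% and 0.115% in Sham. vadinBB60 ASV 5 had 0%, 0% and 0.000668% in SAH against 0.0206%, 0.0237% and 0.0175% in Sham, and no reads in SAH+Tet or SAH+Tet+ABX. In each of these the SAH libraries lay below the Sham libraries. How many of all ASVs showed this order was not counted, so it is not shown to be particular to these ASVs.

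The less abundant vadinBB60 ASVs 6 and 9 also had lower means in SAH than in Sham. vadinBB60 ASV 6 averaged 0.00124% ± 0.00114 in SAH and 0.0159% ± 0.00578 in Sham, and vadinBB60 ASV 9 averaged 0.00137% ± 0.00120 in SAH and 0.0102% ± 0.00428 in Sham. Other ASVs of the leading 10 were uneven within groups. vadinBB60 ASV 2 had 0.0616%, 0.0322% and 0% in SAH and 0%, 0.00100% and 0.0142% in Sham, with no reads in SAH+Tet. vadinBB60 ASV 8 reached 0.0347% in Sham 2 and was at or under 0.00223% in every other library, and vadinBB60 ASV 3 reached 0.0456% in Sham 3 while Sham 1 and Sham 2 had none. vadinBB60 ASV 4 was at 0.0114% in SAH+Tet+ABX 3, within the range of the Sham libraries. vadinBB60 ASV 7 had no reads in Sham, 0.0224% in SAH+Tet 3 and 0.0173% in SAH 1, the 2 shallower libraries of those groups. UCG-014 ASV 6 had 0.139%, 0.0486% and 0.0141% in SAH+Tet, 0%, 0.0403% and 0.0372% in SAH, and 0.0464%, 0.147% and 0.0927% in Sham.

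**Figure D3:**
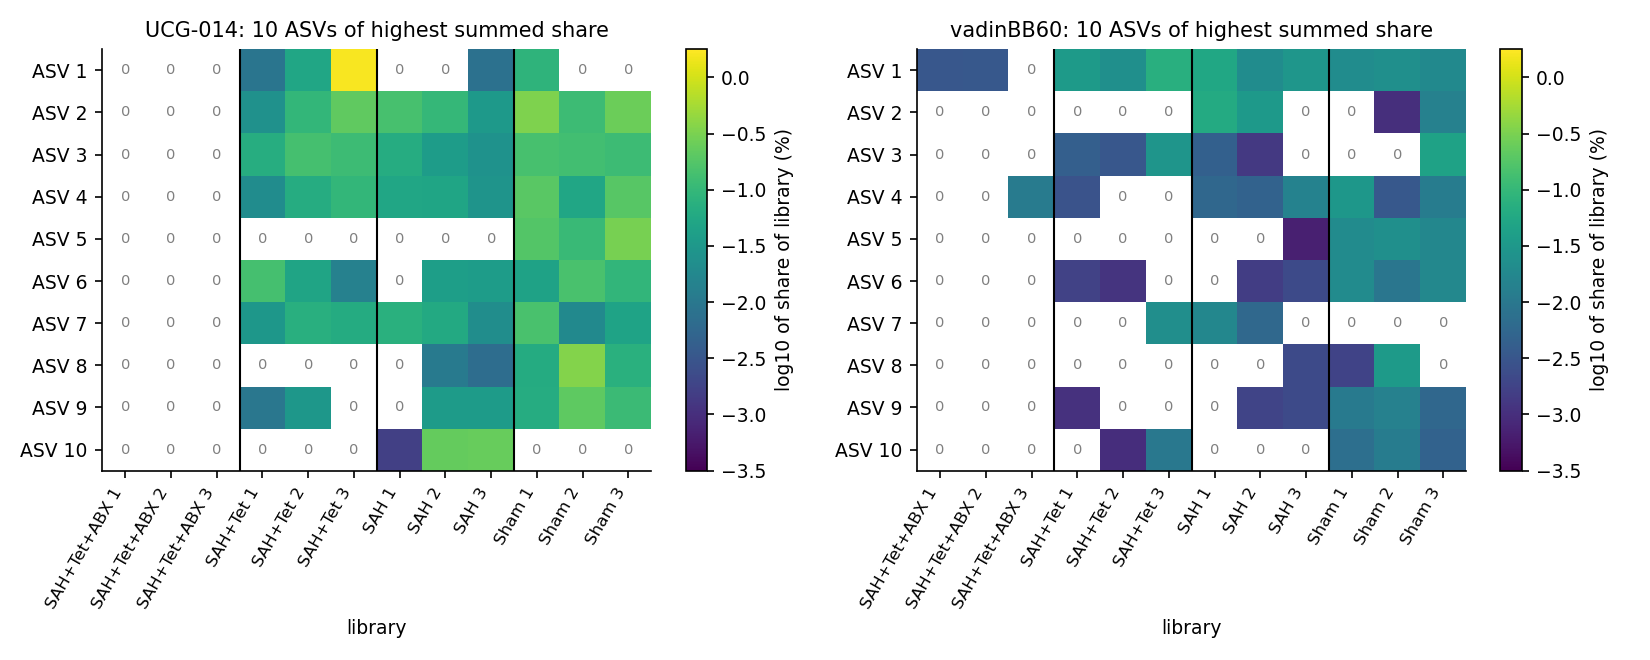
Log10 of the share of library reads (%) for the 10 ASVs of highest summed share of UCG-014 (left) and vadinBB60 (right), with 1 column per library. White cells marked 0 had no reads. UCG-014 ASV 5 appears in Sham alone, UCG-014 ASV 10 in SAH alone and vadinBB60 ASV 1 in 11 of the 12 libraries.

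ASVs present in all 3 libraries of one group and absent from all 3 of the other were uneven in direction between SAH and Sham. With 0 reads in every SAH library and reads in every Sham library there were 34 UCG-014 ASVs and 10 vadinBB60 ASVs. In the opposite direction there were 3 UCG-014 ASVs and 0 vadinBB60 ASVs. Over the whole table these numbers were 297 and 74. Against a floor of 3 reads per library, UCG-014 ASV 5 was at least 243-fold lower in SAH, UCG-014 ASV 13 at least 98.2-fold lower and UCG-014 ASV 20 at least 91.7-fold lower. Without Sham 3 the limit was 56.4-fold for UCG-014 ASV 13 and 55.5-fold for UCG-014 ASV 20. vadinBB60 ASVs 16, 10 and 17, with Sham means of 0.00853%, 0.00810% and 0.00724%, were at least 10.5-fold, 9.96-fold and 8.90-fold lower in SAH. Without Sham 2 the limit for vadinBB60 ASV 16 was 5.61-fold.

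The 3 UCG-014 ASVs seen in every SAH library and in no Sham library were ASVs 10, 56 and 108. UCG-014 ASV 10 had 0.00161%, 0.229% and 0.241% in SAH, so its SAH mean of 0.157% ± 0.135 came from SAH 2 and SAH 3, and SAH 1 held 4 reads. UCG-014 ASV 56 had 0.0415%, 0.0205% and 0.0252% in SAH, at least 48.9-fold higher than the Sham floor, and UCG-014 ASV 108 averaged 0.0128% ± 0.00601. None of the 3 had reads in SAH+Tet or SAH+Tet+ABX.

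Single ASVs were also tested. Of the 565 members, 163 passed the filter of 10 reads in at least 3 libraries, 131 of UCG-014 and 32 of vadinBB60. In SAH against Sham, edgeR called 0 of the 163, as it did 0 of all 2283 ASVs tested (0%), while 56 of the 163 and 552 of the 2283 had an unadjusted p under 0.05. With no filter, the median log2 fold change was 0.00 over all 6720 ASVs fitted. It was -0.80 over the UCG-014 ASVs and -1.33 over the vadinBB60 ASVs. Many of these ASVs had reads in a single group. For UCG-014, 103 were in Sham alone and 73 in SAH alone, and for vadinBB60 48 and 16. The medians thus partly restate these counts, and leaving out the filter does not remove that selection. UCG-014 ASVs 5, 13, 20 and 56 each had an adjusted p of 0.110, the lowest value in edgeR's fit. Many other members tied at this value, among them UCG-014 ASV 24 and vadinBB60 ASV 23, so it does not single these ASVs out. Other tools run on the same counts called 35 of the 163 members and 405 of the 2283 ASVs with DESeq2. limma on centred log-ratios called 28 members and 270 ASVs.

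In SAH+Tet against SAH, edgeR again called 0 of the 163 members and 0 of the 2283 ASVs (0%). Unadjusted p-values under 0.05 were found for 39 members and 474 ASVs. DESeq2 called 18 members and limma 7, but without the share over all ASVs these counts show nothing particular to the lineages. UCG-014 ASVs 13, 24 and 36 had reads in all SAH+Tet libraries and none in SAH. UCG-014 ASV 13 had 0.0753%, 0.0261% and 0.0370% in SAH+Tet, at least 56.7-fold above the SAH floor, and 0.0893%, 0.00241% and 0.148% in Sham. UCG-014 ASV 24 had 0.0247%, 0.0788% and 0.0145% in SAH+Tet, and 0.0171%, 0.0267% and 0.0246% in Sham. UCG-014 ASV 36 had 0.0341%, 0.00890% and 0.0440% in SAH+Tet, and 0.0236%, 0.00461% and 0.0231% in Sham. These ASVs were thus at levels overlapping those in Sham.

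Among ASVs of that kind, vadinBB60 ASVs 36 and 41 averaged 0.00438% ± 0.00330 and 0.00210% ± 0.00238 in SAH+Tet, near the limit of detection. In the other direction, UCG-014 ASVs 10, 30 and 56 had reads in every SAH library and none in SAH+Tet. UCG-014 ASV 30 had 0.0427%, 0.0399% and 0.0370% in SAH, at least 46.8-fold above the SAH+Tet floor, and 0.0192%, 0.00742% and 0.00962% in Sham. In all, 5 UCG-014 ASVs and 2 vadinBB60 ASVs were in every SAH+Tet library and no SAH library, and 6 and 0 the other way round. Over the whole table these numbers were 127 and 60.

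In SAH+Tet+ABX against SAH+Tet, edgeR called 13 of the 163 members, all lower and all of UCG-014, where 233 of 2394 ASVs, or 9.73%, were called lower. The members as a set were thus called at a lower rate than all ASVs, and UCG-014 alone at about the same rate. These calls are therefore not particular to the lineages. No tested UCG-014 ASV had reads in SAH+Tet+ABX, so a call on one could only be lower. Members without reads in either of these groups were tested too and could not be called. UCG-014 ASVs 2, 3, 4, 7 and 12, the core ASVs described above, each had an adjusted p of 0.0170, the lowest in the fit, and UCG-014 ASV 24 had one of 0.0292. Each had 0 reads in SAH+Tet+ABX. Against the floor they were at least 85.6-fold lower for ASV 2, 82.9-fold for ASV 3, 46.9-fold for ASV 4, 42.5-fold for ASV 7, 47.4-fold for ASV 12 and 30.05-fold for ASV 24. The limit for UCG-014 ASV 2 was 45.8-fold without SAH+Tet 3, and that for UCG-014 ASV 24 was 15.0-fold without SAH+Tet 2. UCG-014 ASV 1, with a SAH+Tet mean of 0.562% ± 0.921, was at least 429-fold lower but did not pass (adjusted p = 0.0636 with edgeR), and its mean came from SAH+Tet 3, without which the limit was 23.2-fold. The count of 13 moved to 0 without SAH+Tet+ABX 3 and to 20 without SAH+Tet 3, and the other libraries left out in turn gave between 5 and 7.

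What little remained under ABX came from few ASVs. The 18 UCG-014 reads of SAH+Tet+ABX 1 all belonged to UCG-014 ASV 240, which had no reads in any other library. The vadinBB60 reads of the 3 libraries belonged to 6 ASVs, and none of the 6 was in all 3 libraries. vadinBB60 ASV 1 supplied all 7 reads in SAH+Tet+ABX 1 and 42.1% of them in SAH+Tet+ABX 2. In SAH+Tet+ABX 3 vadinBB60 ASV 14 led with 55.3% of the lineage, at 0.0172% of reads, against 0.00290% in SAH+Tet 2 and 0% in SAH+Tet 1 and 3. Of these 6 ASVs, 4 were also found in SAH+Tet, which is 66.7% of the 6 and 5.19% of the 77 vadinBB60 ASVs of SAH+Tet. Over all ASVs, SAH+Tet+ABX and SAH+Tet shared 478, which is 43.4% of those in SAH+Tet+ABX and 12.2% of those in SAH+Tet.

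The groups shared only part of their ASVs, and libraries within SAH+Tet or within SAH also shared few, as given below. In UCG-014, 208 ASVs were found in at least 1 SAH+Tet library, 156 in SAH and 244 in Sham. SAH and Sham shared 74 of them, 47.4% of those in SAH and 30.3% of those in Sham. SAH+Tet and SAH shared 57, 27.4% of those in SAH+Tet and 36.5% of those in SAH. SAH+Tet and Sham shared 115, 55.3% of those in SAH+Tet and 47.1% of those in Sham. Over all ASVs, the shared parts were 54.7% of SAH and 46.4% of Sham for the first pair, 44.6% of SAH+Tet and 54.7% of SAH for the next, and 53.1% of SAH+Tet and 55.2% of Sham for the last.

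vadinBB60 had 77 ASVs in SAH+Tet, 54 in SAH and 96 in Sham. SAH and Sham shared 30, 55.6% of those in SAH and 31.2% of those in Sham, and SAH+Tet and SAH shared 26, 33.8% of those in SAH+Tet and 48.1% of those in SAH. SAH+Tet and Sham shared 37, 48.1% of those in SAH+Tet and 38.5% of those in Sham.

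By reads, the shared ASVs weighed more than by number. The 74 UCG-014 ASVs common to SAH and Sham made up 60.7% ± 12.5 of the lineage's reads in SAH and 54.1% ± 5.70 in Sham. Their summed share of the library was 1.07% ± 0.372 in SAH and 1.71% ± 0.177 in Sham, while the ASVs found in one of the groups alone summed to 0.655% ± 0.0931 in SAH (82 ASVs) and to 1.49% ± 0.491 in Sham (170 ASVs). For vadinBB60 the 30 shared ASVs summed to 0.114% ± 0.0291 in SAH and 0.169% ± 0.0168 in Sham, and the others to 0.0314% ± 0.00611 in SAH and 0.137% ± 0.0174 in Sham (SD, n = 3 each). For the whole table, ASVs found in both groups came to 77.9% ± 2.06 of SAH reads and 86.1% ± 2.73 of Sham reads. The difference in share between SAH and Sham was spread over the ASVs that both groups held and those that Sham held alone.

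Seen over all groups at once, 103 UCG-014 ASVs were found in Sham alone, 84 in SAH+Tet alone and 73 in SAH alone. Another 67 were in SAH+Tet and Sham, 26 in SAH and Sham, and 9 in SAH+Tet and SAH. The 48 in SAH+Tet, SAH and Sham but not in SAH+Tet+ABX were 11.7% of the lineage's ASVs and held 50.5% of its summed share. Over the whole table such ASVs were 15.0% of all ASVs and held 24.0% of the summed share. Another 338 ASVs of the table, or 4.67%, were in all 4 groups and held 51.3%. No UCG-014 ASV was in all 4 groups, so its 50.5% and the 24.0% are not like measures. In vadinBB60, 48 ASVs were in Sham alone, 32 in SAH+Tet alone and 16 in SAH alone. ASVs of Sham alone were thus 25.1% of UCG-014, 31.2% of vadinBB60 and 18.4% of all ASVs, those of SAH+Tet alone 20.4%, 20.8% and 20.3%, and those of SAH alone 17.8%, 10.4% and 14.8%, in the same order. The 17 in SAH+Tet, SAH and Sham but not in SAH+Tet+ABX held 22.1% of the summed share, and the 2 found in all 4 groups held 20.9%, most of it from vadinBB60 ASV 1.

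**Figure D4:**
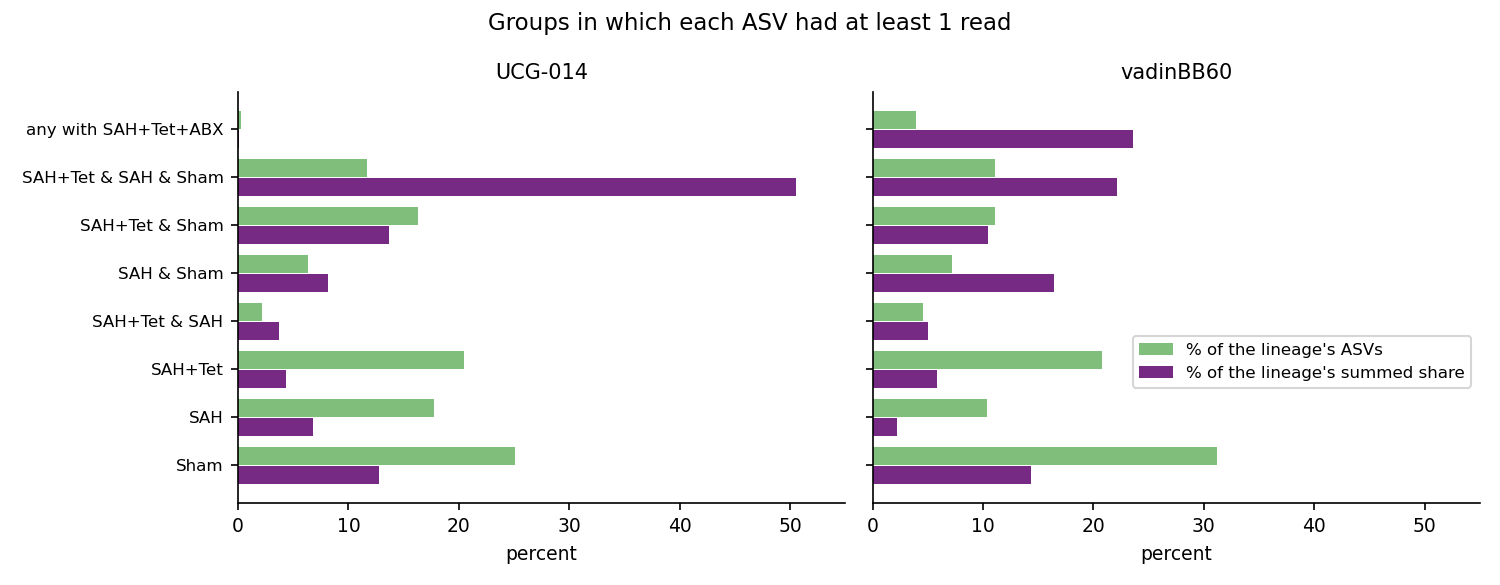
Percent of each lineage's ASVs (green) and of its summed share over the 12 libraries (purple) by the groups in which an ASV had at least 1 read. The 48 UCG-014 ASVs found in SAH+Tet, SAH and Sham hold 50.5% of the summed share. ASVs of 1 group alone are 63.5% of UCG-014 ASVs, 63.0% of vadinBB60 ASVs and 60.7% of all ASVs in the table. They hold 23.9%, 22.5% and 7.64% of the summed share, in that order.

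Between libraries, the measure of overlap was the number of ASVs in both libraries as a percent of those in either. For UCG-014 the mean was 22.1% ± 1.76 between SAH+Tet libraries, 27.6% ± 11.8 between SAH libraries and 41.6% ± 5.44 between Sham libraries (SD over 3 pairs each). Across groups it was 14.2% ± 1.81 between SAH+Tet and SAH, 21.5% ± 4.43 between SAH+Tet and Sham, and 17.0% ± 3.66 between SAH and Sham (9 pairs each). On average Sham libraries thus shared the most with each other, and SAH+Tet libraries shared about as much with Sham as among themselves. SAH 2 shared 36.5% with SAH 1 and 32.1% with SAH 3, but SAH 1 and SAH 3 shared 14.3%, within the range of pairs from different groups.

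For vadinBB60 the means were 15.7% ± 6.63 between SAH+Tet libraries, 21.2% ± 11.3 between SAH libraries and 36.5% ± 10.8 between Sham libraries. Across groups they were 13.97% ± 5.15 between SAH+Tet and SAH, 14.8% ± 5.85 between SAH+Tet and Sham, and 15.6% ± 5.09 between SAH and Sham. The lowest pair was SAH+Tet 3 and SAH 3, with 3.77%. Most of these values lay below those of other families: the medians over 48 families were 33.7% within SAH+Tet, 35.9% within SAH and 49.1% within Sham, and 29.1%, 33.6% and 31.8% across groups in the order above.

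The share of the squared distances that lay between the groups SAH+Tet, SAH and Sham was 41.6% for UCG-014 and 36.7% for vadinBB60. The exact permutation test over 280 arrangements gave adjusted p-values of 0.0156 and 0.0245, and it called 15 of 48 families, or 31.2%. Without SAH 2, the deepest library, the part between groups was 41.3% for UCG-014 and 37.7% for vadinBB60. The permutation test then gave an adjusted p of 0.0571 for UCG-014 and 0.0923 for vadinBB60, from unadjusted values of 0.00357 and 0.0214, and called 0 of 48 families. The vadinBB60 call was also lost without SAH+Tet 1 (0.0623), Sham 1 (0.0735), Sham 2 (0.0571) or Sham 3 (0.0800) in the same permutation test. The part between groups was then 41.1%, 36.8%, 39.5% and 36.0%, in that order. Among the 7 deeper libraries alone the part between groups was 51.6% for UCG-014 and 49.0% for vadinBB60, with an adjusted p of 0.0218 for both by permutation over 105 arrangements. The unadjusted p of that test was 0.00952 for both, the lowest that 105 arrangements allow. It called 35 of 48 families, so these calls are not particular to the 2 lineages. The part between groups tends to be larger with fewer libraries, so it is not comparable with that of all 9 libraries.

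**Figure D5:**
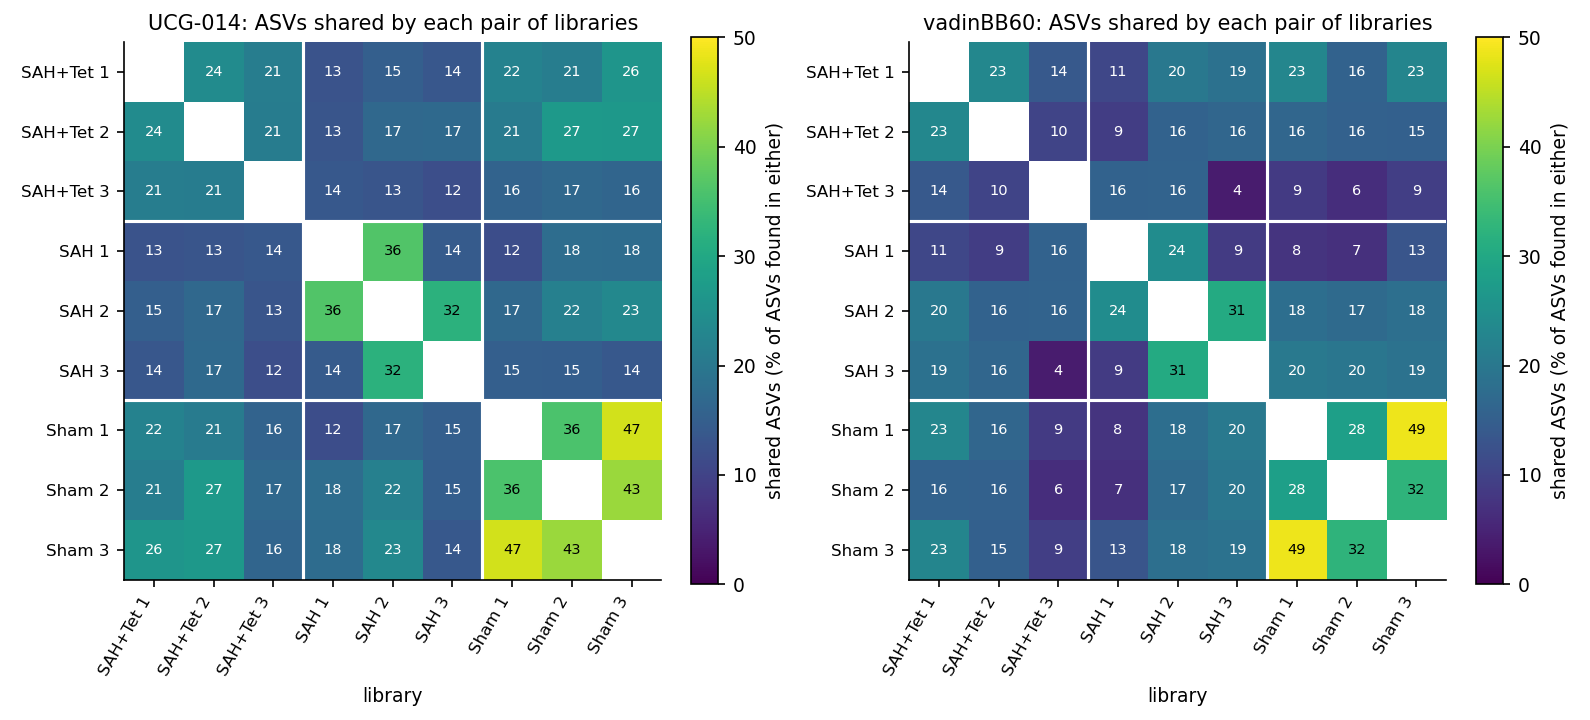
Percent of ASVs shared by each pair of the 9 SAH+Tet, SAH and Sham libraries (ASVs in both over ASVs in either) for UCG-014 (left) and vadinBB60 (right), with numbers rounded to whole percent. The mean over Sham pairs is the highest in both lineages, SAH 1 and SAH 3 share little, and SAH+Tet 3 shares little with any Sham library in vadinBB60.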

How the data were processed

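Bacterial 16S rRNA genes were amplified from rat faecal DNA and sequenced in 12 libraries. The deposited table gives counts of reads per ASV and library with a taxonomic lineage. The deposited counts are whole numbers, and the 12 per-library tables hold the same counts. Reads were handled with fastp and cutadapt, per the submitters' processing notes. Not given in the sources used here: denoiser, primers, amplified region and taxonomy database. The depth of a library is its summed count. A second treatment label names a cell differentiation protocol for all 12 libraries and was not used.

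Of 7240 ASVs, 2 labelled Eukaryota were left out. Counts were summed per family-level lineage (193 features). edgeR 4.0.16 in R 4.3.3 tested the family and ASV counts of features reaching 10 reads in 3 or more of the fitted libraries (quasi-likelihood test, TMM scaling, Benjamini-Hochberg over all features tested, threshold 0.05). SAH against Sham and SAH+Tet against SAH were fitted on 9 libraries, and SAH+Tet+ABX against SAH+Tet on 12. Standard errors are the log2 fold change over the square root of F. Exact permutation tests compared log10(share in percent + 0.0005), the expected ASV number at 211450 reads, and Jaccard distances. The scripts were tested on simulated data. Alternatives were library-total scaling, DESeq2 1.42.0, limma 3.58.1 on centred log-ratios, no filter, a replicate block, a depth-class block, the 6 libraries compared alone, each library left out, other added constants and detection limits, and equal depth.

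Named ASVs are the 10 of highest summed share in each lineage, up to 6 passing the threshold per comparison and direction by adjusted p, and up to 3 per pair of groups found in all libraries of one and none of the other. UCG-014 ASV 240 and vadinBB60 ASV 14 were named after their values were seen. The members and lists were chosen with earlier results of these data known. Same-numbered libraries were checked for pairing by the correlation of their deviations from the group means. It ran from -0.66 to 0.65, with 2 of 18 pairs over 0.1. With few libraries a group this check cannot exclude pairing, so a replicate block was run as an alternative.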

Additional observations from a re-analysis of the deposited data

How the results depend on the processing

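Depth limits the rarest ASVs, many of which lie near the limit of 3 reads. With 3 libraries a group, 171 of the values recomputed under alternatives stayed the same. For fold changes this means the same direction and side of the threshold. For permutation tests it means the same side, and for counts of called ASVs a change of at most 1.5 times. Another 20 values no longer passed, 6 turned in direction and 18 counts moved by over 1.5 times. The cause was not tested except where fewer libraries or other features in the fit are the change itself. For SAH against Sham no alternative turned the direction or made either lineage pass, and with each library left out the log2 fold changes ran from -0.76 to -0.34 for UCG-014 and from -1.09 to -0.56 for vadinBB60.

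For SAH+Tet against SAH neither lineage passed under any alternative. The direction turned in the 7 deeper libraries alone, chosen after seeing the data, at log2 -0.0922 for UCG-014 and -0.0433 for vadinBB60 in the TMM-scaled fit, where the mean shares were 1.68% in SAH+Tet and 1.61% in SAH for UCG-014, and 0.132% and 0.129% for vadinBB60. With each library left out it ran from -0.17 to 0.60 for UCG-014, negative without SAH+Tet 3, and from -0.23 to 0.35 for vadinBB60, negative without SAH+Tet 3, SAH 2 (-0.22) or SAH 3 (-0.16).

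For SAH+Tet+ABX against SAH+Tet UCG-014 passed throughout, from -16.19 to -9.27 with each library left out. vadinBB60 did not pass as centred log-ratios with limma (-0.98, where the median family was at 0.61), with no filter (-3.04) or in the 6 libraries alone (-2.91), and ran from -4.42 to -2.46 with each library left out.

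Whether replicate numbers pair the libraries is not known. With the replicate block the permutation tests gave adjusted p = 0.0604 and 0.0475 for the shares of UCG-014 and vadinBB60. They gave 0.0382 and 0.0409 for the ASV numbers, and 0.0889 and 0.140 for the turnover. The blocked turnover test had 36 arrangements and called 0 of 48 families, so these lost calls are not particular to the lineages. Its unadjusted p was 0.0278 for UCG-014, the lowest that 36 arrangements allow, and 0.0556 for vadinBB60. With this block edgeR called 3 ASVs lower under ABX. No edgeR call on a lineage's share changed with the block. Without SAH+Tet+ABX the exact permutation p became 0.371 and 0.228 for the shares and 0.393 for both ASV numbers, adjusted, and 0 families were called in either test. With each library left out the turnover ran from 0.0114 to 0.0571 for UCG-014 and from 0.0114 to 0.0923 for vadinBB60.

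Counts of called ASVs of both lineages changed with the tool and with the libraries fitted. For SAH against Sham they were 0 by edgeR, 35 by DESeq2, 28 by limma, 10 with no filter and 40 in the 6 libraries alone. Over all ASVs tested these settings called 0 of 2283, 405 of 2283, 270 of 2283, 160 of 6720 and 304 of 1703. For the other 2 comparisons the counts under alternatives stand without the share over all ASVs, so they show nothing particular to the lineages. For SAH+Tet against SAH they were 0 by edgeR, 18 by DESeq2, 7 by limma and 3 with no filter. For SAH+Tet+ABX against SAH+Tet they were 13 by edgeR, 8 with library-total scaling, 41 by DESeq2, 8 with a depth-class block, 20 in the 6 libraries alone, and from 0 to 20 with each library left out.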
